A study of Gallus gallus with 20 samples.

Results

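Genes of skeletal muscle were followed through the epithelium and mesenchyme of chicken embryonic skin. The set holds 40 gene symbols: the myogenic regulatory factors, the actins, tropomyosins, troponins and light chains of the contractile filaments, the proteins that anchor them, and the calcium release, acetylcholine receptor and energy genes of the muscle fibre. A probe set was on the array for 36 of them, among 13009 genes in all, and for a gene with several probe sets the brightest on average was taken. CKM, TCAP, RYR1 and PGAM2 had no probe set in the annotation used here. The skin came from White Leghorn embryos, and RNA was hybridised to 20 Affymetrix chicken arrays. In the group names s and f stand for scale and feather skin, and m and e for mesenchyme and epithelium. Metatarsal scale skin was taken at embryonic day 11 (E11sm and E11se, 3 arrays each), labelled differentiated, and at day 9 (E9sm and E9se, 2 arrays each), labelled undifferentiated. Dorsal feather skin was taken at day 9 (E9fm and E9fe, 3 arrays each), labelled differentiated, and at day 7 (E7fm and E7fe, 2 arrays each), labelled undifferentiated. By their labels, the arrays within a group are biological replicates, each of pooled tissue. No embryo carried a mutation or received an agent, and in the scale and feather comparisons of like differentiation the scale skin was the older.

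Skeletal muscle forms when progenitors from the somites switch on the basic helix-loop-helix factors MYF5, MYOD1, MYOG and MYF6, which, with MEF2 proteins, turn on the genes of the sarcomere. In the sarcomere, thin filaments of actin, tropomyosin and troponin slide along thick filaments of myosin, and calcium released from the sarcoplasmic reticulum starts the movement through troponin. In bird skin the muscles that move the feathers are smooth muscle, whereas striated muscle lies beneath the dorsal skin. Several genes of the set are not particular to skeletal muscle: ACTC1, MYL2, MYL3, MYL4, TNNC1, TNNT2, MYBPC3 and CASQ2 are also well known from the heart, and TPM1 and TPM2 give rise to tropomyosins in smooth muscle and in cells that are not muscle.

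All levels below are the log2 values that were deposited, on which 1 unit is a 2-fold step, and they are compared between arrays for the same probe set only. The array medians lay between 5.62 and 5.69. The set was dim as a whole, since 27 of the 36 members lay below 5.71, the median probe set. The arrays labelled E9fm replicate 1 and E9fe replicate 1 went against their label in genes of body region. TBX4, a hindlimb gene, had 10.39 on E9fm replicate 1, against 5.29 and 5.35 on E9fm replicates 2 and 3, and lay between 10.11 and 11.16 on the 5 scale mesenchyme arrays. HOXC9, a trunk gene, had 5.82 on E9fm replicate 1 and 9.69 and 9.56 on replicates 2 and 3. SP8, a limb epithelium gene, had 10.16 on E9fe replicate 1, against 3.98 and 4.01 on E9fe replicates 2 and 3, and lay between 9.50 and 10.15 on the 5 scale epithelium arrays. The tests of the members are therefore given with all 20 arrays and with the 18 that remain when these 2 are left out. The mean of 18 dermal mesenchyme genes lay between 11.21 and 11.48 on all 10 mesenchymal arrays. It was 9.33 on E9fe replicate 1 and lay between 7.15 and 8.20 on the other epithelial arrays. These tissues were mixtures of cells, and in them fewer cells of a type and less RNA per cell cannot be told apart.

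The muscle genes stood highest in feather mesenchyme at day 9, on replicates 2 and 3 of E9fm. For 15 of the 36 members (41.7%) both of these arrays lay above every one of the other 18 arrays, epithelium included. Of all 13009 genes 2.73% did so. The 15 were MYOD1, ACTC1, ACTA1, the myosin light chains MYL1, MYL2, MYL3, MYL4 and MYL10, the troponins TNNC1, TNNC2, TNNI2, TNNT2 and TNNT3, ACTN2 and SRL. For 6 members (16.7%) the gap to the next array was above 1 log2 unit, against 0.269% of all genes. The members were chosen with earlier results of these data known, so their shares may not be independent of these values. On E9fm replicate 1, 11 of the 15 lay within the range of the 7 E11sm, E9sm and E7fm arrays, and MYOD1, TNNC2, TNNT2 and TNNT3 lay above it. The mean level over the 36 members lay between 4.98 and 5.25 on the 5 scale arrays, and it was 5.16, 6.15 and 6.08 on E9fm and 5.15 and 5.11 on E7fm. No other mesenchymal array came within reach of the pair at 6.15 and 6.08.

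**Figure D1:**
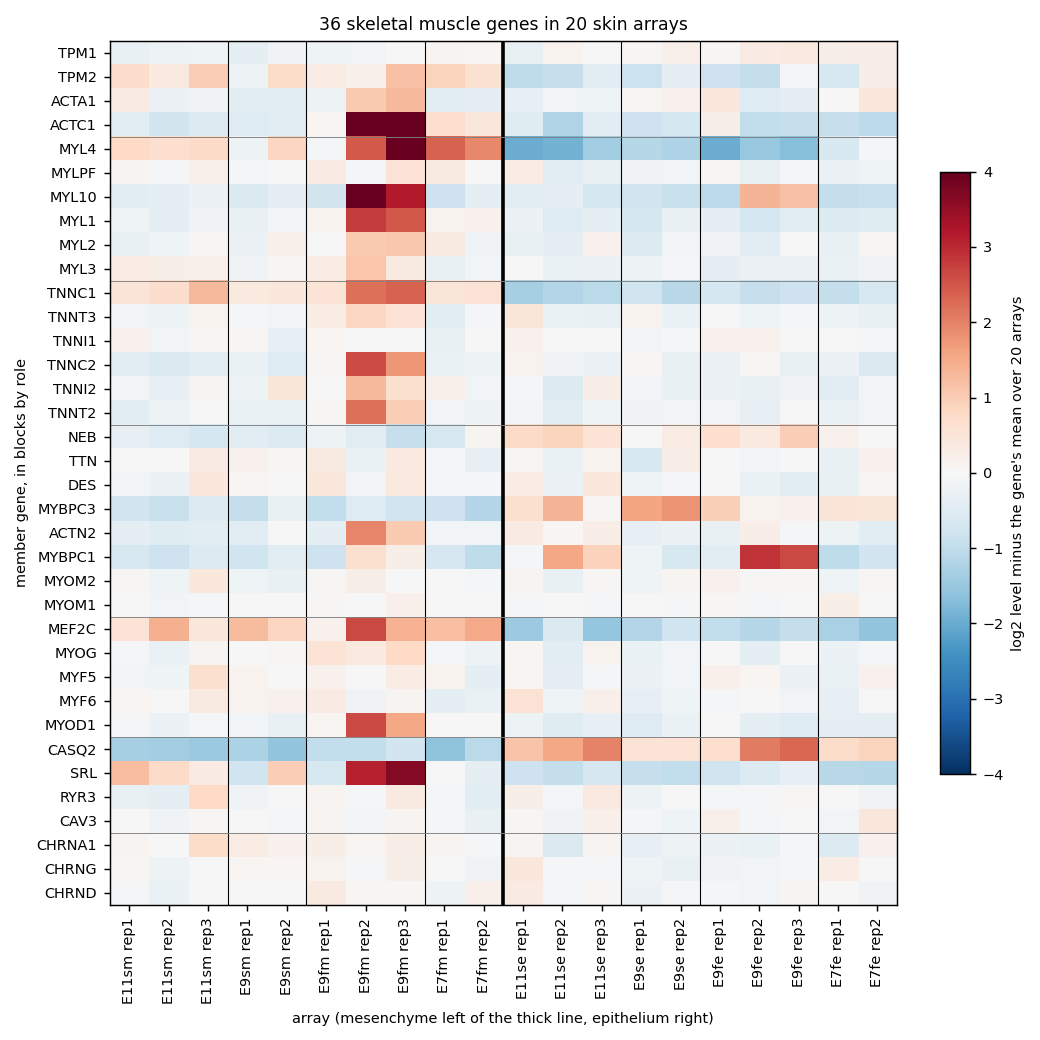
Log2 level of 36 skeletal muscle genes on each of 20 arrays, as the difference from the gene's mean over all arrays (colour, log2 units, with values past the ends of the scale in the end colours). Rows are genes in blocks by role, columns are arrays by group with mesenchyme left of the thick line. E9fm replicates 2 and 3 are the highest arrays for 15 genes, while CASQ2 and MYBPC3 are higher in epithelium.

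Of the 4 basic helix-loop-helix factors, MYOD1 passed tests between mesenchymal groups with 18 arrays but none with all 20. MYOG, MYF5 and MYF6 passed none of these with either. Against epithelium in E9 feather skin, MYOD1 and MYOG were higher in mesenchyme with 20 and with 18 arrays. MYOD1, which starts the muscle programme, had 3.64, 3.45 and 3.59 in E11sm, 3.57 and 3.39 in E9sm, 3.75, 6.31 and 5.23 in E9fm and 3.66 and 3.68 in E7fm. Its level on E9fm replicates 2 and 3 was thus at least 1.49 log2 units above the highest of the other mesenchymal arrays. MYOG, which acts in differentiation, had 5.68, 5.48 and 5.85 in E11sm, 5.74 and 5.77 in E9sm, 6.27, 6.11 and 6.53 in E9fm and 5.64 and 5.54 in E7fm. All 3 E9fm arrays were above all other mesenchymal arrays, replicate 1 included, but the differences of E9fm from E7fm (0.73 ± 0.21 SE with 18 arrays) and of E11sm from E9fm (-0.65 ± 0.20) did not pass (adjusted p = 0.119 and 0.138, limma). MYF5, the early determination factor, had 4.97, 4.91 and 5.71 in E11sm, 5.22 and 5.05 in E9sm, 5.24, 5.06 and 5.36 in E9fm and 5.20 and 4.72 in E7fm. MYF6, which is late and maintains fibres, had 4.20, 4.09 and 4.47 in E11sm, 4.25 and 4.29 in E9sm, 4.44, 3.96 and 4.23 in E9fm and 3.75 and 3.86 in E7fm. For MYF5 the groups overlapped, and for MYF6 both E7fm arrays lay below all other mesenchymal arrays, without a difference that passed. MEF2C, the partner of these factors, was well above its epithelial level in every mesenchymal group and is described with that comparison. It lay between 6.61 and 7.96 on the mesenchymal arrays other than E9fm replicates 2 and 3, where MYOD1 was at most 3.75.

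Among the thin-filament genes the 2 sarcomeric actins moved and the tropomyosins, in the probe sets used, did not. ACTC1, the cardiac alpha-actin, which embryonic skeletal muscle also makes, had 4.92, 4.62 and 4.79 in E11sm, 4.84 and 4.93 in E9sm, 5.41, 9.99 and 9.43 in E9fm and 6.01 and 5.78 in E7fm. It showed the largest range of the set over the mesenchymal arrays, and E7fm lay between the scale groups and the 2 high arrays. With all 3 arrays E9fm averaged 8.28 ± 2.50 (SD, n = 3), and without replicate 1 it averaged 9.71 ± 0.39 (SD, n = 2), against 5.90 ± 0.16 in E7fm (SD, n = 2). ACTA1, the skeletal alpha-actin, had 8.10, 7.54 and 7.64 in E11sm, 7.35 and 7.34 in E9sm, 7.56, 8.83 and 9.08 in E9fm and 7.32 and 7.43 in E7fm. TPM1 was bright and flat, between 11.99 and 12.49 over the 10 mesenchymal arrays, and TPM2 lay between 10.08 and 11.47.

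Of the myosin light chains, MYL10, MYL4 and MYL1 each ranged over more than 3 log2 units in mesenchyme. MYL10, a regulatory light chain gene, had 4.20, 4.26 and 4.43 in E11sm, 4.08 and 4.30 in E9sm, 3.92, 9.10 and 7.84 in E9fm and 3.84 and 4.27 in E7fm. It was below 4.5 on 8 mesenchymal arrays and far above that on the other 2. MYL10 was also raised on the epithelial arrays of the same 2 numbers, with 3.60, 6.01 and 5.83 on the 3 E9fe arrays, and it lay between 3.71 and 4.28 on the other 7 epithelial arrays. MYL1, the alkali light chain of fast fibres, had 3.84, 3.61 and 3.87 in E11sm, 3.72 and 3.90 in E9sm, 4.15, 6.80 and 6.51 in E9fm and 4.15 and 4.19 in E7fm. MYL4, the embryonic and atrial light chain, behaved otherwise in that E7fm was high as well. It had 8.39, 8.28 and 8.34 in E11sm, 7.38 and 8.46 in E9sm, 7.55, 10.05 and 11.54 in E9fm and 9.97 and 9.50 in E7fm. MYL2 and MYL3, the ventricular and slow-fibre light chains, stayed dim throughout, and their highest mesenchymal levels were 4.86 and 4.72, both in E9fm. MYLPF, the fast regulatory light chain, lay between 4.73 and 5.39 over the mesenchymal arrays and passed no test between mesenchymal groups.

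Of the 6 troponin genes, TNNC2, TNNC1 and TNNT2 passed tests between mesenchymal groups with 18 arrays, but none with all 20. TNNI2 and TNNT3 passed only against epithelium in E9 feather skin, and TNNI1 passed none. TNNC2, the fast calcium-binding subunit, had 4.14, 4.03 and 4.19 in E11sm, 4.35 and 4.08 in E9sm, 4.64, 7.21 and 6.33 in E9fm and 4.34 and 4.38 in E7fm. TNNC1, the slow and cardiac subunit, had 5.78, 5.99 and 6.58 in E11sm, 5.68 and 5.70 in E9sm, 5.82, 7.48 and 7.65 in E9fm and 5.78 and 5.87 in E7fm. The 2 high E9fm arrays were again above the others, and E11sm replicate 3 came nearest in TNNC1. TNNT2, which binds tropomyosin in heart and embryonic muscle, had 3.24, 3.52 and 3.73 in E11sm, 3.45 and 3.46 in E9sm, 3.77, 5.91 and 4.71 in E9fm and 3.59 and 3.50 in E7fm. TNNI2 and TNNT3, the fast inhibitory and tropomyosin-binding subunits, reached 5.69 and 6.04 on E9fm replicate 2, and the slow subunit TNNI1 lay between 4.32 and 4.82.

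In the remaining roles ACTN2 and SRL passed tests between mesenchymal groups with 18 arrays, but none with all 20. The other members passed no such test with either. ACTN2, the alpha-actinin of the Z-disc, had 4.18, 4.04 and 4.08 in E11sm, 4.07 and 4.52 in E9sm, 4.16, 6.48 and 5.58 in E9fm and 4.44 and 4.44 in E7fm. SRL, the sarcoplasmic reticulum protein sarcalumenin, had 5.73, 5.25 and 4.82 in E11sm, 3.71 and 5.47 in E9sm, 3.86, 7.56 and 8.17 in E9fm and 4.49 and 4.13 in E7fm. In SRL the E9sm arrays lay far apart, at 3.71 and 5.47, and the second of them lay within the range of E11sm. MYBPC1, a myosin-binding protein of slow fibres, had 4.84 and 4.46 on E9fm replicates 2 and 3, against at most 3.74 on the other mesenchymal arrays, and its difference of E9fm from E7fm did not pass (1.29 ± 0.37 with 18 arrays, adjusted p = 0.103). The intermediate filament gene DES, the M-band genes MYOM1 and MYOM2, the ryanodine receptor RYR3 and the caveolin CAV3 spanned at most 1.19 log2 units over the mesenchymal arrays. They passed no test between mesenchymal groups, although some groups did not overlap, such as E9fm and E7fm in MYOM2 and RYR3. The share of all probe sets in which these groups did not overlap was not computed. TTN lay between 5.53 and 6.27. In the probe sets used, the acetylcholine receptor subunits CHRNA1, CHRNG and CHRND spanned at most 0.80 log2 units over the mesenchymal arrays. A second CHRNA1 probe set spanned 1.23. It had 5.39 and 4.53 on E9fm replicates 2 and 3, against at most 4.72 on the other mesenchymal arrays. CHRNG, the subunit of the embryonic receptor, lay between 3.74 and 4.18.

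**Figure D2:**
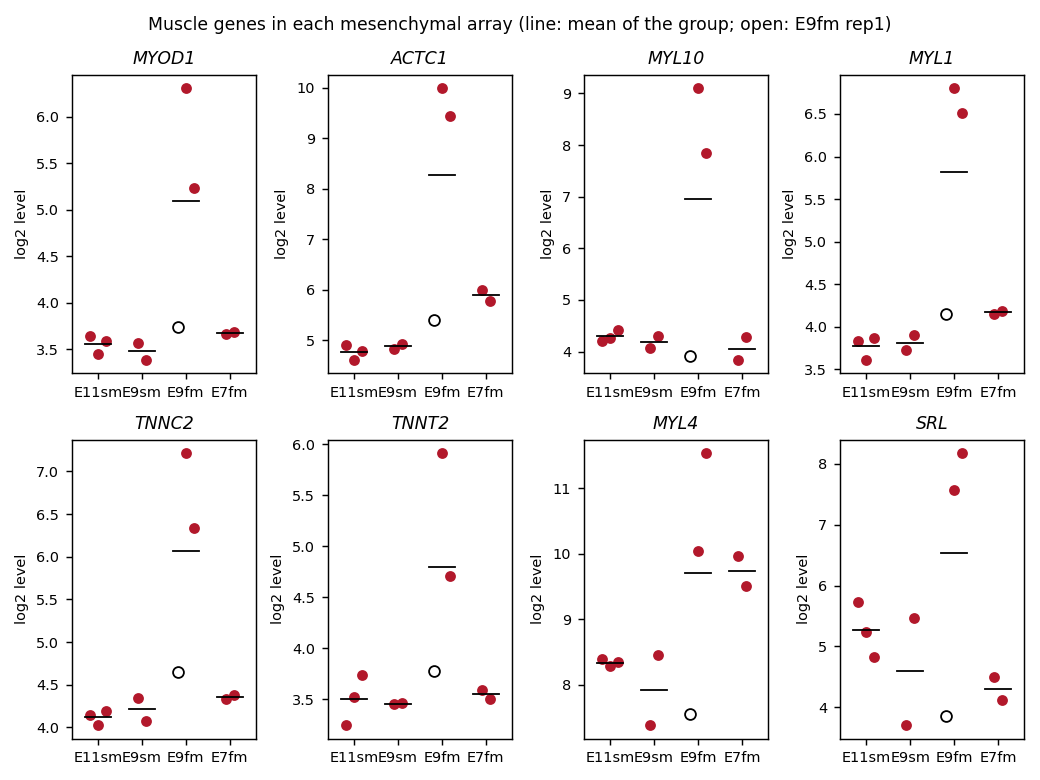
Log2 level (y axis) of 8 muscle genes on each mesenchymal array, by group (x axis), with the mean over all arrays of the group as a line. In 7 of the 8 genes E9fm replicates 2 and 3 stand apart from all other arrays by more than 0.9 log2 units, E9fm replicate 1 (open circle) lies near the other groups, and MYL4 is also high in E7fm.

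The comparison of differentiated scale with differentiated feather mesenchyme, E11sm with E9fm, sets the 2 kinds of dermis side by side at the later stage of each. With all 20 arrays no member passed at an adjusted p of 0.05 (limma, Benjamini-Hochberg over 38439 probe sets). Of all probe sets 0.0052% passed in either direction. An unadjusted p below 0.05 was found for 14 of the 36 members and for 1810 of the 38439 probe sets. With 18 arrays 12 members were lower in E11sm and none higher, where 1.23% of all probe sets were lower. The 12 were MYOD1, ACTC1, ACTA1, TNNC1, TNNC2, TNNT2, MYL1, MYL2, MYL4, MYL10, ACTN2 and SRL, or 1 of 5 regulatory factors, 2 of 4 actins and tropomyosins, 3 of 6 troponins, 4 of 6 light chains, 1 of 8 Z-disc, M-band and thick-filament genes, 1 of 4 calcium and membrane genes and 0 of 3 receptor subunits. ACTC1 fell by 4.94 ± 0.22 (SE, adjusted p = 1.16e-08) and MYL10 fell by 4.18 ± 0.27 (adjusted p = 4.73e-07). MYL1 fell by 2.89 ± 0.17 (adjusted p = 1.65e-07) and TNNC2 fell by 2.65 ± 0.23 (adjusted p = 1.01e-05). With all 20 arrays the difference of ACTC1 was -3.50 ± 0.77 (adjusted p = 0.171) and that of MYL10 -2.66 ± 0.89 (adjusted p = 0.587). The median difference over the 36 members was -0.51 with 18 arrays and -0.41 with 20, beside -0.01 and -0.02 over all probe sets. These p-values and standard errors use a spread between arrays labelled biological replicates that is pooled over all 8 groups, not that of E9fm alone. With 18 arrays E9fm rested on 2 arrays. The SDs of ACTC1, MYL10, MYL1 and TNNC2 were 0.39, 0.89, 0.21 and 0.62 in these 2. In E11sm (n = 3) they were 0.15, 0.12, 0.14 and 0.08. Leaving out E9fm replicate 2 as well left 11 lower members, and leaving out replicate 3 gave 14.

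At day 9, where scale and feather mesenchyme have the same age but not the same degree of differentiation, the difference had the same direction. With all arrays no member passed in E9sm minus E9fm (15 had an unadjusted p below 0.05), and 0% of all probe sets did. With 18 arrays 12 members were lower and none higher, where 1.7% of all probe sets were lower. ACTC1 fell by 4.83 ± 0.24 (adjusted p = 4.16e-08), MYL10 fell by 4.29 ± 0.30 (adjusted p = 1.05e-06), SRL fell by 3.28 ± 0.42 (adjusted p = 0.000349) and MYL4 fell by 2.87 ± 0.41 (adjusted p = 0.000906). The other 8 were MYOD1, ACTA1, TNNC1, TNNC2, TNNT2, MYL1, MYL2 and ACTN2, with differences from -2.85 for MYL1 to -1.07 for MYL2. This comparison and the one before it share the E9fm arrays, and so does the next.

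Within feather mesenchyme, E9fm minus E7fm compares skin labelled differentiated with skin labelled undifferentiated. With all arrays no member passed (13 had an unadjusted p below 0.05), and 0.52% of all probe sets did in either direction. With 18 arrays 11 members were higher at day 9 and none lower, where 1.34% of all probe sets were higher. MYL10 rose by 4.42 ± 0.30 (adjusted p = 1.88e-06), ACTC1 rose by 3.82 ± 0.24 (adjusted p = 1.66e-06), SRL rose by 3.56 ± 0.42 (adjusted p = 0.00028) and MYL1 rose by 2.49 ± 0.19 (adjusted p = 4.71e-06). MYOD1 rose by 2.10 ± 0.25 (adjusted p = 0.000358), and TNNC2, TNNT2, TNNC1, ACTN2, ACTA1 and MYL3 rose by between 0.96 and 2.41. MYL4 did not pass (1.06 ± 0.41, adjusted p = 0.31), its E7fm arrays being high already. The median difference over the members was 0.56, beside 0.01 over all probe sets. Leaving out E9fm replicate 2 or 3 in addition left 11 higher members in both cases.

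**Figure D3:**
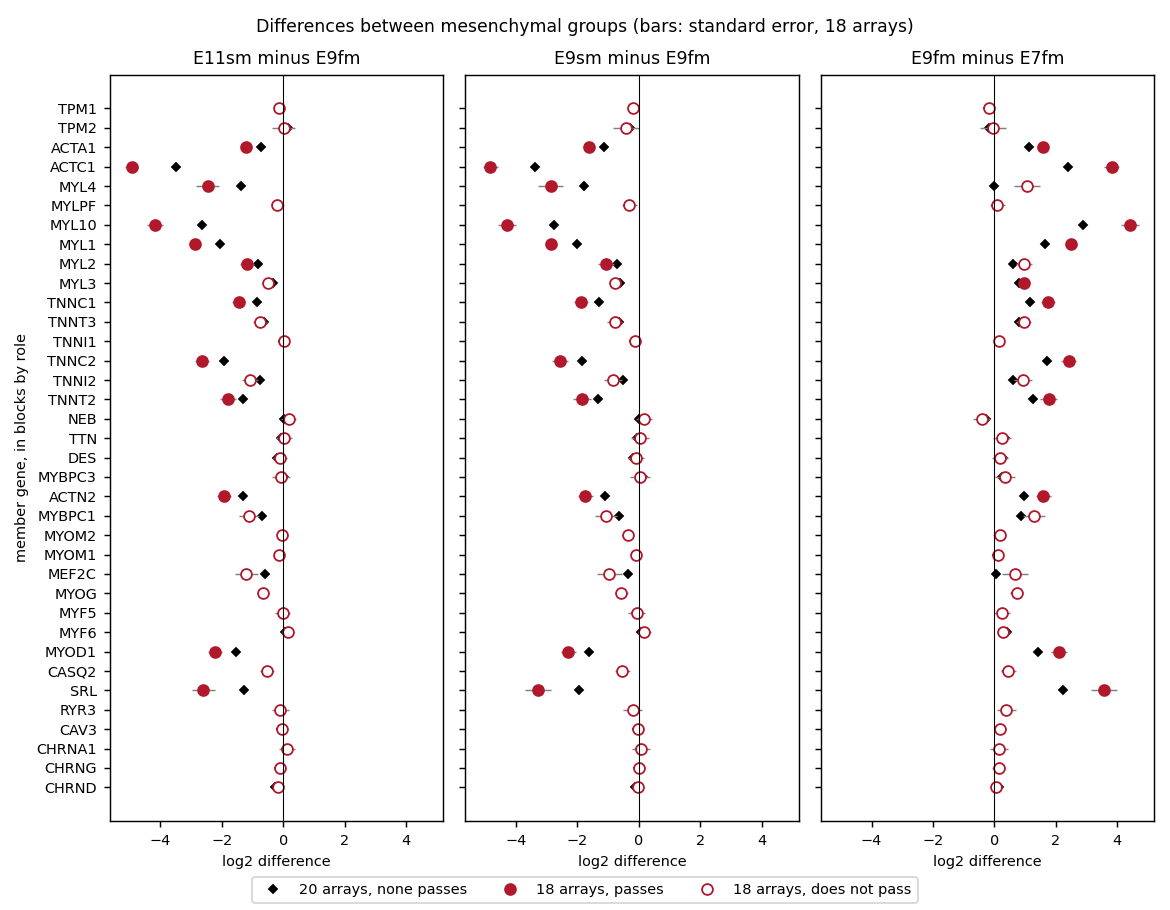
Log2 difference (x axis) of each of 36 muscle genes (rows, in blocks by role) between mesenchymal groups, with the standard error for 18 arrays as a bar. Filled circles pass at an adjusted p of 0.05 with 18 arrays, which is 12 genes in E11sm minus E9fm, 12 in E9sm minus E9fm and 11 in E9fm minus E7fm. With all 20 arrays (diamonds) none passes.

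Between the groups labelled undifferentiated, and within scale skin, the muscle genes differed little. In E9sm minus E7fm no member passed with all arrays (3 had an unadjusted p below 0.05, and 0.788% of all probe sets passed). With 18 arrays MYL4 fell by 1.81 ± 0.41 (adjusted p = 0.0315) and ACTC1 fell by 1.01 ± 0.24 (adjusted p = 0.0463), where 1.01% of all probe sets were lower. No member passed when E7fm replicate 1, E7fm replicate 2 or E9sm replicate 1 was left out as well, and 1 did without E9sm replicate 2. In E11sm minus E9sm no member passed with 20 or 18 arrays (0 and 1 had an unadjusted p below 0.05), nor did any probe set (0%). Its differences of largest size were 0.68 ± 0.84 for SRL, 0.43 ± 0.37 for TPM2, 0.43 ± 0.38 for TNNC1 and 0.42 ± 0.71 for MYL4 (SE, 20 arrays, adjusted p = 1 for each). Without E9sm replicate 2, of the 18 arrays, SRL passed at 1.56, and without E9sm replicate 1 its difference was -0.20.

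The change of the scale and feather difference with stage was tested directly, as E11sm minus E9fm less E9sm minus E7fm. This is the same contrast as E11sm minus E9sm less E9fm minus E7fm. It uses the same E9fm arrays as the comparisons above and is not separate from them. With all arrays no member passed (6 had an unadjusted p below 0.05), and 0.0442% of all probe sets did. With 18 arrays 7 members passed, all with a more negative difference at the later stage, where 0.219% of all probe sets did. The difference of differences was -4.31 ± 0.40 for MYL10 (adjusted p = 0.000125), -3.93 ± 0.33 for ACTC1 (adjusted p = 8e-05) and -2.88 ± 0.57 for SRL (adjusted p = 0.0454). For MYL1, TNNC2, MYOD1 and ACTN2 it lay between -2.53 and -1.79. ACTC1, TNNC2, MYL1 and MYL10 passed whichever further array was left out of the 18. They alone passed without E7fm replicate 1 or 2. MYOD1 passed with them without E11sm replicate 1, 2 or 3. Of these 3 settings SRL passed only without E11sm replicate 1, and ACTN2 passed in none.

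Mesenchyme and epithelium differed in the muscle genes in both directions. TNNC1, MEF2C and MYL4 were higher in mesenchyme in all 4 skins with 18 arrays, and CASQ2 was lower in all 4. With 20 arrays MYL4 did not pass in E9sm minus E9se (adjusted p = 0.273), and the other 3 genes passed in all 4 skins. TNNC1 had 5.78, 5.99 and 6.58 in E11sm, against 3.97, 4.10 and 4.22 in E11se, and 5.78 and 5.87 in E7fm, against 4.32 and 4.63 in E7fe. MEF2C averaged 7.26 ± 0.52 in E11sm and 5.25 ± 0.53 in E11se (SD, n = 3 each), and 7.81 ± 0.22 in E7fm and 5.01 ± 0.19 in E7fe (SD, n = 2 each). CASQ2, which binds calcium in the sarcoplasmic reticulum, had 5.23, 5.16 and 5.06 in E11sm, against 7.70, 8.09 and 8.52 in E11se, and 5.55, 5.56 and 5.78 in E9fm, against 7.21, 8.64 and 8.83 in E9fe. The ranges of mesenchyme and epithelium did not overlap for TNNC1, MEF2C, CASQ2 or MYBPC3 over all 20 arrays. MYBPC3 was at most 4.36 in mesenchyme and at least 4.71 in epithelium. The share of all probe sets without such overlap was not computed.

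In E9fm minus E9fe, 15 members were higher in mesenchyme with 20 arrays and 3 lower, where 8.42% of all probe sets were higher and 17% passed in either direction. With 18 arrays 17 were higher and 3 lower, where 8.68% of all probe sets were higher. ACTC1 was 5.33 ± 0.24 higher (adjusted p = 1.43e-09, 18 arrays), MYL4 was 4.82 ± 0.41 higher and SRL was 3.81 ± 0.42 higher, and with all arrays these differences were 3.50, 3.86 and 2.59. In the other skins few members passed. In E11sm minus E11se, 4 were higher and 3 lower with 20 arrays, beside 18.8% of all probe sets in either direction. With 18 arrays 5 were higher and 5 lower, beside 21.1%, the added ones being SRL, ACTN2 and MYBPC1. In E9sm minus E9se, 2 were higher and 2 lower, beside 13.8%, and with 18 arrays 3 were higher and 2 lower, beside 16.1%. In E7fm minus E7fe, 3 were higher and 2 lower, beside 12.4%, and with 18 arrays 5 were higher and 3 lower, beside 14.2%. The added ones in E7 feather skin were ACTC1 and MYL1, higher in mesenchyme, and ACTA1, higher in epithelium. The shares of 19.4%, 11.1% and 13.9% of the members with 20 arrays were near these backgrounds. With 18 arrays the shares were 27.8%, 13.9% and 22.2%, beside 21.1%, 16.1% and 14.2%. With 1 array of the compared pair left out of the 20, the number of passing members was 2 without E9se replicate 1, E9se replicate 2 or E9sm replicate 1 in E9sm minus E9se, and in E7fm minus E7fe it was 2 without E7fe replicate 1 or E7fm replicate 2 and 3 without E7fe replicate 2 or E7fm replicate 1. In E9fm minus E9fe 12 passed without E9fe replicate 2, against 18 with all arrays. With 20 arrays the members lower in mesenchyme were CASQ2 and MYBPC3 in the skins other than E9 feather, with NEB in E11 scale, and CASQ2, MYBPC3 and NEB in E9 feather. In E9 feather with 18 arrays MYBPC1 passed and MYBPC3 did not (adjusted p = 0.113).

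Besides CASQ2, the members higher in epithelium are annotated to the sarcomere. MYBPC3, the cardiac myosin-binding protein C, had 3.72 and 4.36 in E9sm, against 6.25 and 6.48 in E9se, a difference of -2.32 ± 0.36 (adjusted p = 0.000215). NEB, by annotation the giant thin-filament protein nebulin, had 6.82, 6.61 and 6.44 in E11sm, against 7.89, 8.03 and 7.67 in E11se. The gene identifier of its probe set had no current symbol, whereas the symbols of the other 35 members were current. This was the brightest of 8 NEB probe sets, and 5 of the others had their highest level on a mesenchymal array, among them one with 4.26 and 4.15 on E9fm replicates 2 and 3, against at most 3.63 on the other mesenchymal arrays. MYBPC1 had 3.38, 4.84 and 4.46 in E9fm, against 3.80, 7.10 and 6.86 in E9fe. In E7fe it had 3.20 and 3.45, so that its high epithelial level was seen on E9fe replicates 2 and 3 and, to a lesser extent, on the E11se arrays at 4.14, 5.75 and 5.11. With all arrays the difference of E9fm from E9fe in MYBPC1 did not pass (-1.69 ± 0.64, adjusted p = 0.0883), and with 18 arrays it did (-2.33 ± 0.37, adjusted p = 0.000315). With the replicate number as a block within the skin, it passed with all arrays too, in E9 feather (adjusted p = 0.00458) and in E11 scale (adjusted p = 0.0102), as did MYL10, ACTN2, DES and TPM1 in E9 feather with 20 arrays and TPM2 with 18. TPM2 was 1.48 ± 0.33 higher in E11sm than in E11se (adjusted p = 0.00403, 20 arrays).

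**Figure D4:**
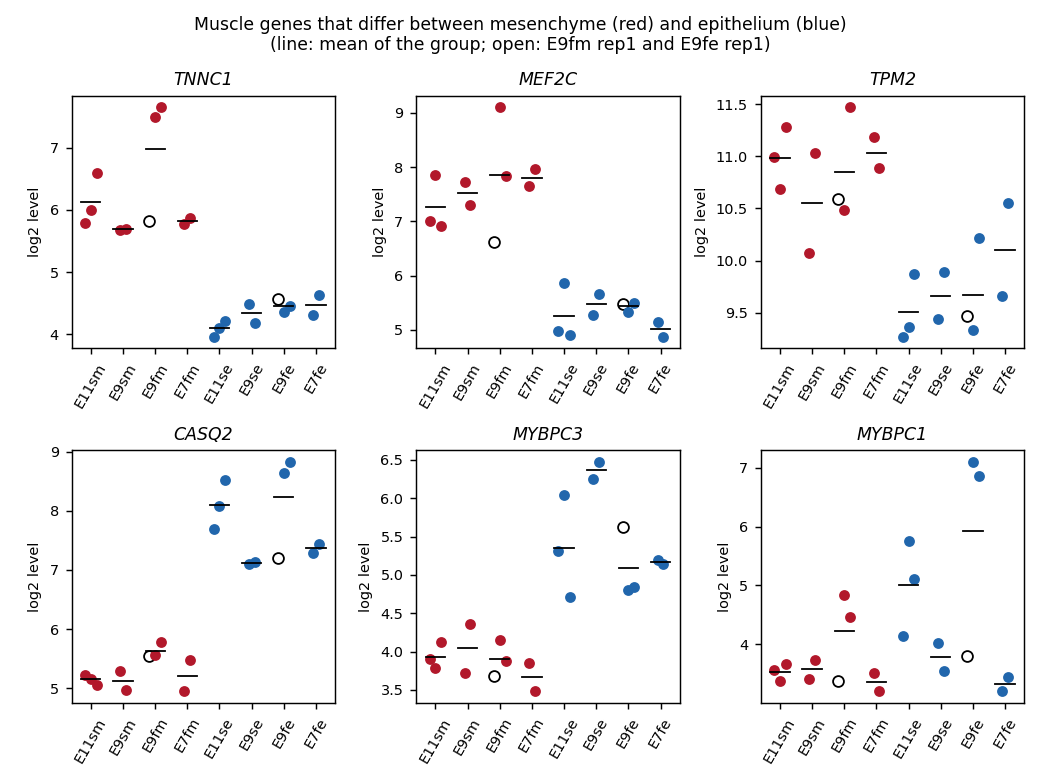
Log2 level (y axis) of 6 muscle genes on every array of the 8 groups (x axis), mesenchyme in red and epithelium in blue, with the group mean as a line and replicate 1 of E9fm and E9fe as open circles. TNNC1 and MEF2C are higher in all mesenchymal arrays, CASQ2 and MYBPC3 are higher in all epithelial arrays, and MYBPC1 is highest on E9fe replicates 2 and 3.

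Of the 36 members 15 had more than 1 probe set, and not all of a gene's probe sets behaved alike. A second MYL1 probe set had 6.77 and 5.32 on E9fm replicates 2 and 3, against at most 3.62 on the other mesenchymal arrays, while another had 3.47 and 4.01, against at most 3.93. The second ACTN2 probe set had 6.61 and 5.48, against at most 4.79. TPM1 was level in its brightest probe set, but a dimmer one had 6.27 and 5.19 on the same arrays, against at most 4.52. Another dim TPM1 probe set had 6.59 and 4.75, against at most 4.90. Of 19 TTN probe sets a dim one had 6.15 and 4.98, against at most 4.48. A second TNNI1 probe set had 4.48 and 4.81, against at most 3.75. The CASQ2 probe set used here had 5.56 and 5.78 on the 2 arrays, against at most 5.55 on the other mesenchymal arrays.

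Other skeletal muscle genes, outside the 40, moved less in the median. Of 40 further genes of contraction and sarcomere on the array none passed in E9fm minus E7fm or in E11sm minus E9fm with 20 arrays, and 2 were higher in E9fm than in E7fm with 18 arrays and none lower, namely MYH7B, a slow myosin heavy chain, and MYOZ2, a Z-disc protein (0.83 ± 0.19 and 1.39 ± 0.29). MYH1B, a fast myosin heavy chain gene, had 3.16, 2.90 and 3.42 in E11sm, 2.99 and 3.33 in E9sm, 3.10, 5.28 and 4.07 in E9fm and 4.32 and 4.27 in E7fm. Its difference in E11sm minus E9fm was -1.52 ± 0.27 with 18 arrays (adjusted p = 0.00599). In that comparison 2 of the 40 were lower, with MYH7B, and 2 were higher, PDLIM3 and PDLIM5, which encode proteins that bind alpha-actinin. Of 29 genes of excitation, calcium and energy, none passed in E11sm minus E9fm and LRP4, a receptor of the nerve-muscle synapse, was lower in E9fm than in E7fm (-1.33 ± 0.24). The median differences of the 2 lists in E9fm minus E7fm were 0.12 and 0.14, beside 0.56 for the members. Members and lists were chosen with earlier results of these data known, so the gap between these medians may follow from the choice.

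Of the genes of muscle progenitors and fusion 1 followed the members closely and most did not. Among 23 on the array, none of which passed in these comparisons with 20 arrays, FST, which encodes the activin and myostatin antagonist follistatin, and MEOX2, a homeobox factor, were higher in E9fm than in E7fm with 18 arrays. PAX7, the factor of muscle stem cells that neural crest cells also express, had 4.29, 4.02 and 4.25 in E11sm, 3.95 and 4.16 in E9sm, 4.24, 4.55 and 4.68 in E9fm and 5.10 and 5.16 in E7fm, the highest group. PAX3 and the fusion gene TMEM8C showed no passing difference between mesenchymal groups. FST had 7.27, 7.43 and 7.25 in E11sm, 5.65 and 7.31 in E9sm, 5.70, 9.64 and 9.63 in E9fm and 7.16 and 6.94 in E7fm. It was thus lower on replicate 1 of E9sm and of E9fm than on any other mesenchymal array. FST was also lower in E7fm than in E7fe, with 20 and with 18 arrays.

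Markers of other cells moved on the same arrays as the muscle genes. With all 20 arrays no gene of these marker lists passed in E11sm minus E9fm, and HBZ, an embryonic globin, alone passed in E9fm minus E7fm. Of 10 smooth muscle genes on the array, 6 were higher in E9fm than in E7fm with 18 arrays, and 4 were lower in E11sm than in E9fm (MYOCD, ACTG2, MYH11 and SYNPO2). MYH11, the smooth muscle myosin heavy chain, had 3.82, 4.22 and 4.75 in E11sm, 3.97 and 4.20 in E9sm, 3.85, 6.43 and 8.28 in E9fm and 4.20 and 3.83 in E7fm. MYOCD, the coactivator of smooth and cardiac muscle genes, had 5.07, 6.24 and 6.46 in E9fm and 4.33 and 4.74 in E7fm. The mean level of the 10 genes was 7.06, 7.00 and 7.21 in E11sm, 6.74 and 7.01 in E9sm, 6.94, 7.86 and 8.80 in E9fm and 6.71 and 6.65 in E7fm. The smooth muscle mean was thus higher on E9fm replicate 3 than on replicate 2, whereas 10 of the 15 highest members, MYOD1 among them, were higher on replicate 2. The logarithm of the summed level of the list ran from 11.87 to 13.33 in E9fm and from 11.66 to 11.74 in E7fm.

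The remaining marker lists moved in part. The epidermal list of 13 genes averaged 7.85 on E9fm replicate 1, but 5.56 and 5.95 on replicates 2 and 3, near the 5.61 and 5.65 of E7fm and below the range of 6.33 to 7.03 of the 5 scale arrays. In E11sm minus E9fm 6 of the 13 epidermal genes were higher with 18 arrays, KRT5 and CDH1 among them. The erythroid list averaged 9.14 and 9.54 on E9fm replicates 2 and 3, 10.14 and 9.40 in E7fm and 7.31 to 8.34 in the scale arrays. The endothelial list averaged 9.23 and 9.20 on the 2 arrays, 8.37 and 8.54 in E7fm and 7.02 to 8.86 in the scale arrays. The list of 11 neuronal genes averaged 6.41 and 6.65 on the 2 arrays and 5.88 to 6.13 on the other mesenchymal arrays, NEFL and NEFM, which encode neurofilaments, being higher in E9fm than in E7fm. The list of 10 cardiac regulators and hormones lay between 4.51 and 5.03 on all 10 arrays. Of 15 tendon and cartilage genes THBS4, TNC, COL9A1 and RUNX2 were higher in E9fm than in E7fm with 18 arrays. In E11sm minus E9fm TNC and COL9A1 were lower, and TNMD and MKX, which mark tendon, were higher. The list averaged 6.60 and 6.90 on E9fm replicates 2 and 3 and 6.31 to 7.06 on the other mesenchymal arrays. The neural crest and glia list of 10 genes averaged 5.94 and 6.05 on the 2 arrays and 6.46 to 6.90 on the other mesenchymal arrays, and its pigment cell genes EDNRB2, TYR and PMEL were lower in E9fm than in E7fm. The part of smooth muscle, blood, vessel, nerve, tendon, neural crest and epidermal RNA in the muscle differences was not tested.

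**Figure D5:**
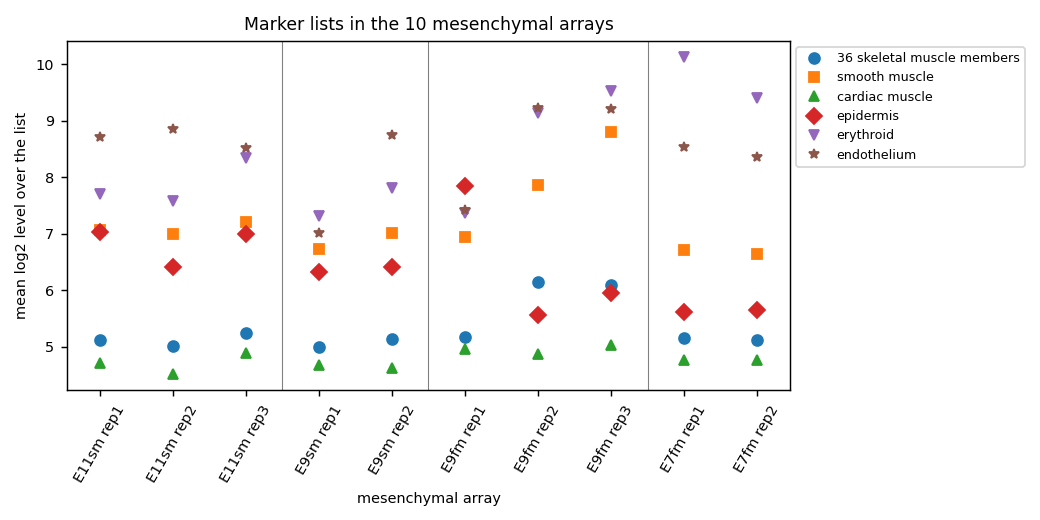
Mean log2 level (y axis) of the 36 muscle genes and of 5 marker lists on each of the 10 mesenchymal arrays (x axis), with lines between the groups. The members reach 6.15 and 6.08 and the smooth muscle list 7.86 and 8.80 on E9fm replicates 2 and 3, while the cardiac list stays between 4.51 and 5.03 and the epidermal list peaks on E9fm replicate 1.

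The 10 genes outside the set whose levels ran most nearly with the mean of the members over the 10 mesenchymal arrays were EDAR, POMC, ZPLD1, GLIS1, C8orf22, GDF3, RUSC2, GNAT3, ESR1 and NXNL1, with Pearson's r from 0.96 to 0.99 as a description of arrays that share 2 high values. EDAR, the ectodysplasin receptor of placodes, had 4.61, 7.12 and 6.79 in E9fm, while the other mesenchymal groups lay between 4.22 and 4.77 and epithelium reached 9.87. POMC, the precursor of melanocortin peptides, had 4.15, 7.83 and 7.99 in E9fm and at most 4.13 in epithelium. GLIS1, a zinc finger factor, had 4.41, 8.87 and 7.94 in E9fm and at most 4.81 in epithelium.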

How the data were processed

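The authors deposited log2 levels, made from the scanned intensities by RMA in the affy package (background correction, quantile normalisation and summary per probe set); no version is given in the sources used here. Of 38535 probe sets, 96 were controls of the array and not used. Gene symbols come from the platform annotation, in which 27168 probe sets carry 1 symbol, 177 several and 11094 none. Groups follow the sample titles. The study's methods state other numbers, 2 for an epithelial and 3 for a mesenchymal group. Differences were tested with limma 3.58.1 in R 4.3.3, with 8 group means over 20 arrays, eBayes moderation and Benjamini-Hochberg adjustment over 38439 probe sets at 0.05, and the fit was tested on simulated data. Figures and tables used Python 3.11.15, numpy 2.4.6, pandas 2.3.3 and matplotlib 3.10.9.

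The members and all gene lists were chosen with earlier results of these data known. Values on every mesenchymal array are given for the 4 myogenic factors and for up to 4 members of largest difference per mesenchymal comparison; ACTA1, TNNC1, TNNT2, ACTN2, MYBPC1, MYBPC3, NEB, CASQ2 and the non-members EDAR, POMC and GLIS1 were added, or picked from 10, after their values were seen. Alternatives were other arrays left out, other probe sets per gene, a floor on low levels, a fit of the compared groups alone, a trended and robust variance, array scaling and a replicate block. Same-numbered arrays deviated together in E9fm and E9fe (r from 0.26 to 0.46), in E11sm and E11se (0.34 to 0.71) and in E11sm and E9fm (0.21 to 0.65), in all 3 pairs of each. E9 feather skin and E11 scale skin were therefore also taken as paired by number within the skin. E11sm and E9fm were paired only in the block over all groups. No label states such pairing. A block within skins or with 18 arrays, the crossed numbers and each further array left out of the 18 were added after the data were seen.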

Additional observations from a re-analysis of the deposited data

Results flagged for a closer look

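For 7 members the scale and feather difference in mesenchyme changed with stage, by a test of the change itself with 18 arrays (E11sm minus E9fm less E9sm minus E7fm). The change was -4.31 for MYL10, -3.93 for ACTC1, -2.88 for SRL, -2.53 for MYL1, -2.50 for TNNC2, -2.02 for MYOD1 and -1.79 for ACTN2, in log2 units. With all 20 arrays none of the 7 passed. With E11sm replicate 2 or 3 left out of the 18 as well, neither SRL nor ACTN2 passed. ACTN2 did not pass without E11sm replicate 1 either. The test rests on the same E9fm arrays as the other comparisons with E9fm.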

How the results depend on the processing

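Against 0 with all arrays, 12 members passed without the arrays labelled E9fe and E9fm replicate 1 in E11sm minus E9fm, 12 in E9sm minus E9fm, 11 in E9fm minus E7fm, 2 in E9sm minus E7fm and 7 in the change of the scale and feather difference with stage, and in E7fm minus E7fe 8 passed against 5. With only the compared groups in the fit, and so fewer arrays, 8 passed in E7fm minus E7fe against 5. In E9fm minus E9fe 6 passed against 18. Why the counts moved was not tested. With probe sets of at least 6 log2 in a group 11 members passed in E9fm minus E9fe, since fewer were tested.

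Over all groups 31 of 62 pairs of same-numbered arrays had deviations correlated above 0.1. These pairs join different skins and days as well as the same skin, so the count cannot decide whether the numbers pair the samples. Between E9sm and E9se the correlation was 0.2. With the replicate number as a block and all arrays, 5 members passed in E7fm minus E7fe, 19 in E9fm minus E9fe, 4 in E9sm minus E9se, 7 in E11sm minus E11se and 0 in the other 6 comparisons. The block without the 2 arrays, which was added after the data were seen, gave 12, 12, 11, 1 and 6 in the 5 comparisons named first above. With the block within each of E9 feather and E11 scale skin, also added then, 23 members passed in E9fm minus E9fe and 8 in E11sm minus E11se with 20 arrays, and 21 and 10 with 18. Deviations of same-numbered arrays correlated at -0.37 between E7fm and E7fe and at -0.33 between E9sm and E7fm, and with the numbers of E7fm crossed in the block 6 and 0 members passed.

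Leaving out each array in turn from the 20 gave 0 to 13 members in E11sm minus E9fm, 0 to 12 in E9sm minus E9fm, 0 to 11 in E9fm minus E7fm and 0 to 7 in the change with stage, the higher count in each case being that without E9fm replicate 1 and every other array giving 0. It gave 0 to 0 in E9sm minus E7fm and in E11sm minus E9sm, 2 to 3 in E7fm minus E7fe, 12 to 21 in E9fm minus E9fe, 2 to 3 in E9sm minus E9se and 7 to 7 in E11sm minus E11se. Leaving out each array in turn from the 18, which was added after the data were seen, gave 11 to 14, 11 to 12, 9 to 11 and 4 to 7 in the first 4 of these comparisons, 0 to 1 in E9sm minus E7fm and in E11sm minus E9sm, 5 to 7 in E7fm minus E7fe, 17 to 20 in E9fm minus E9fe, 4 to 6 in E9sm minus E9se and 9 to 10 in E11sm minus E11se. A direction turned only in E11sm minus E9sm. There, with 1 array left out, SRL ran from -0.20 to 1.56, TPM2 from -0.042 to 0.91 and MYL4 from -0.12 to 0.96, the lowest without E9sm replicate 1 and the highest without E9sm replicate 2, and TPM2 was -0.19 in the probe set of highest variance. Of 457 values of named members under the alternatives 321 stayed on their side of the threshold, 129 passed where they had not with all arrays, and 7 turned. The cause of these changes was not tested. Shares of all probe sets that passed are given only for the main fits with 20 and with 18 arrays. For the other fits, a change in the members cannot be told from one in all probe sets.

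The number of arrays limits the precision. With the doubted arrays left out, every E9fm result rests on 2 arrays, and leaving out a further array assumes that the lone array varies like the other groups. Dim probe sets understate a fold change, and most members were dim. The probe set chosen matters for MYL1, TPM1, TNNI1, TTN, NEB and CHRNA1, whose probe sets differed.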
